A study of Mus musculus with 15 samples.

Results

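Heat shock proteins and chaperones of the endoplasmic reticulum (ER) were followed in cultures of mouse cerebellar cells with and without interleukin-12 (IL-12). The members were the protein-coding genes whose symbols start with Hspa, Hspb, Hspd, Hspe, Hsph, Dnaja, Dnajb or Dnajc and a number, which gave 69 genes. Added to these were 15 listed genes: the small heat shock protein Cryab, and genes of the HSP90 family, of ER folding and of the regulators of both systems. The rule reads gene symbols and no measured value, though it was set with earlier results of these data known. In all, 84 of the 35142 genes with estimated counts were members, and 74 of them passed the filter on low counts (at least 1 CPM, counts scaled to the size of the library, in at least 2 cultures). Each culture was made from cells of C57BL/6 wild-type pups of postnatal days 0 to 4, and was harvested as bulk RNA. The 3 groups, of 5 cultures each, were left unstimulated or received 30 or 100 ng/ml recombinant murine IL-12p70 for 18 h at day 14 in vitro. The labels do not say which cultures shared pups or a plating, so the p-values measure the spread between these cultures.

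Heat shock proteins are molecular chaperones, which hold unfolded proteins, help them to fold or pass them on for degradation. In the cytosol the HSP70 proteins work in cycles with J-domain partners (the DNAJ proteins) and with nucleotide exchange factors of the HSP110 type, HSP90 completes the folding of kinases and receptors, and small heat shock proteins bind unfolded chains without ATP. When unfolded proteins build up in the cytosol, the transcription factor HSF1 binds heat shock elements and raises many of these genes. In the ER the corresponding response runs through the sensors IRE1, PERK and ATF6. ATF6 and the spliced form of XBP1 raise BiP (encoded by Hspa5), protein disulfide isomerases and their partners. In brain tissue, small heat shock proteins such as Cryab and Hspb1 are known mainly from glia.

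The cultures held between 25746096 and 38435850 estimated counts. The labels call the cells neurons, but the summed level of 15 cerebellar neuron markers was low, at 202 to 273 TPM over all cultures (a level per transcript length, scaled to the same total in each culture). Microglia markers (11 genes) summed to 6499 to 11570 TPM, astrocyte markers (11) to 3909 to 5407 TPM and oligodendrocyte lineage markers (12) to 5940 to 9858 TPM. Of the neuron markers, Rbfox3 had 2.37 to 3.42 TPM in the group means and the Purkinje cell gene Pcp2 0.023 to 0.0412 TPM. In such bulk samples, fewer cells of a type and less RNA per cell cannot be told apart. The 100 ng/ml culture with replicate number 2 stood apart from its group in many genes: without it, 19.1% of all tested genes were called at this concentration.

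By level per transcript length, the constitutive cytosolic HSP70 Hspa8 led the members, with 2243 ± 33.8 TPM in unstimulated cultures (SD, n = 5). Calr, the calcium-binding lectin chaperone of the ER lumen, followed at 1215 ± 63.5 TPM. The cytosolic HSP90 genes Hsp90ab1 (812 ± 24.0 TPM) and Hsp90aa1 (770.0 ± 56.7 TPM) did not differ beyond their spread. Hspa5 followed with 596 to 634 TPM over the 5 cultures, just above the ER isomerase Pdia3 with 539 to 590.0 TPM, which in turn overlapped with the ER-resident HSP90 Hsp90b1 (498 to 551 TPM). The small heat shock protein Cryab had 444 ± 24.8 TPM. The stress-inducible HSP70 genes were near the bottom, with 4.88 ± 0.415 TPM for Hspa1a and 4.29 ± 0.662 TPM for Hspa1b. The 84 members together held 1.17% of all TPM in unstimulated cultures, 1.22% with 30 ng/ml and 1.2% with 100 ng/ml.

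**Figure D1:**
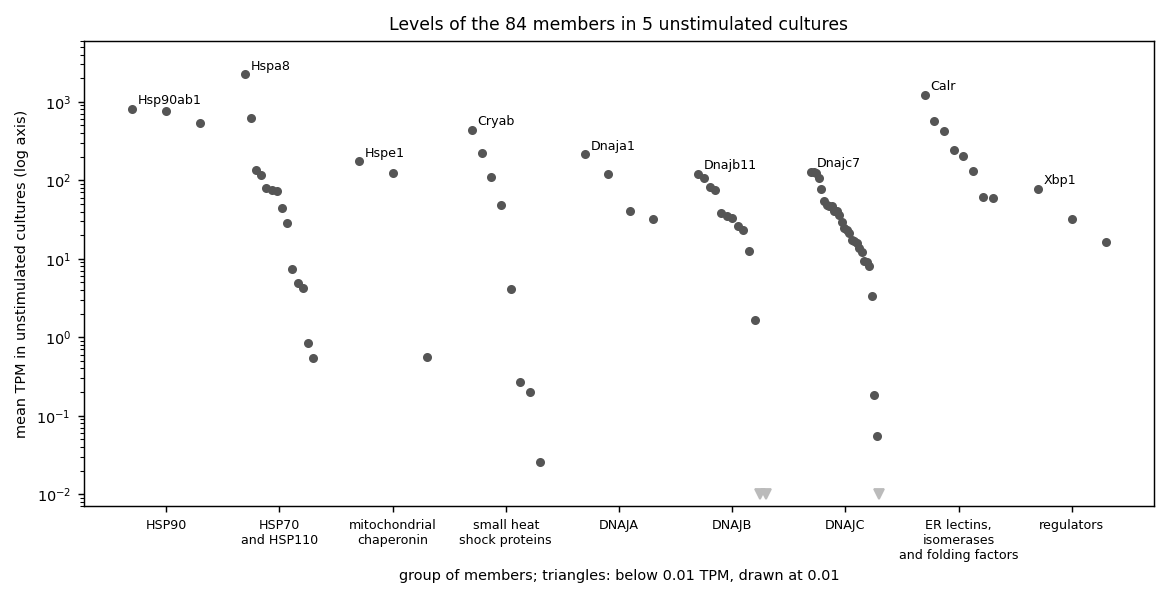
Mean level of each of the 84 members in the 5 unstimulated cultures, in TPM on a log axis, by group of members, with the highest member of each group named. Hspa8 (2243 TPM) and Calr (1215 TPM) lie at the top, and the triangles mark members below 0.01 TPM.

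The other 10 members were too low to be tested, none with more than 27 estimated counts in any culture. Dnajb8 and Dnajc5g had 0 counts in all 15 cultures. Hspa12b had 9 to 27 counts, Hspb7 7 to 24 and Dnajc22 2 to 13. Dnajb7, Dnajc5b, Hspb3 and Hspb9 had at most 5. The remaining 74 members were read in the fit of all 15360 tested genes, and a member was called where its Benjamini-Hochberg false discovery rate (FDR) over all these genes was under 0.05.

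At 100 ng/ml IL-12, 5 members rose (Hspb1, Hspb6, Cryab, Hspa8 and Dnajb5) and 2 fell (Hspa2 and Hspa1a). That is 6.76% and 2.7% of the 74 tested members, beside 5.83% of all tested genes called higher and 3.93% called lower. At 30 ng/ml, 5 rose (Cryab, Hspb6, Hsph1, Hspb8 and Dnajc9) and 1 fell (Hspa2), or 6.76% and 1.35%, beside 4.16% and 3.71% of all genes. In either direction, 9.46% of members and 9.77% of all genes were called with 100 ng/ml, and 8.11% and 7.87% with 30 ng/ml. These shares lay near each other in this fit, while with 30 ng/ml DESeq2 called 16.2% of members and 10.9% of all genes. The median log2 fold change of the tested members was 0.0080 with 100 ng/ml and -0.0028 with 30 ng/ml, beside -0.0038 and 0.0001 over all tested genes. The changes were small: 66 of 74 members with 100 ng/ml and 67 of 74 with 30 ng/ml had a log2 fold change under 0.2 in either direction. Both comparisons use the same unstimulated cultures, so they are not independent of each other. Between 100 and 30 ng/ml, 0 members were called by edgeR and 0 by DESeq2, and 8 had an unadjusted p under 0.05, while 0.501% of all genes were called higher and 0.0781% lower with 100 ng/ml.

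**Figure D2:**
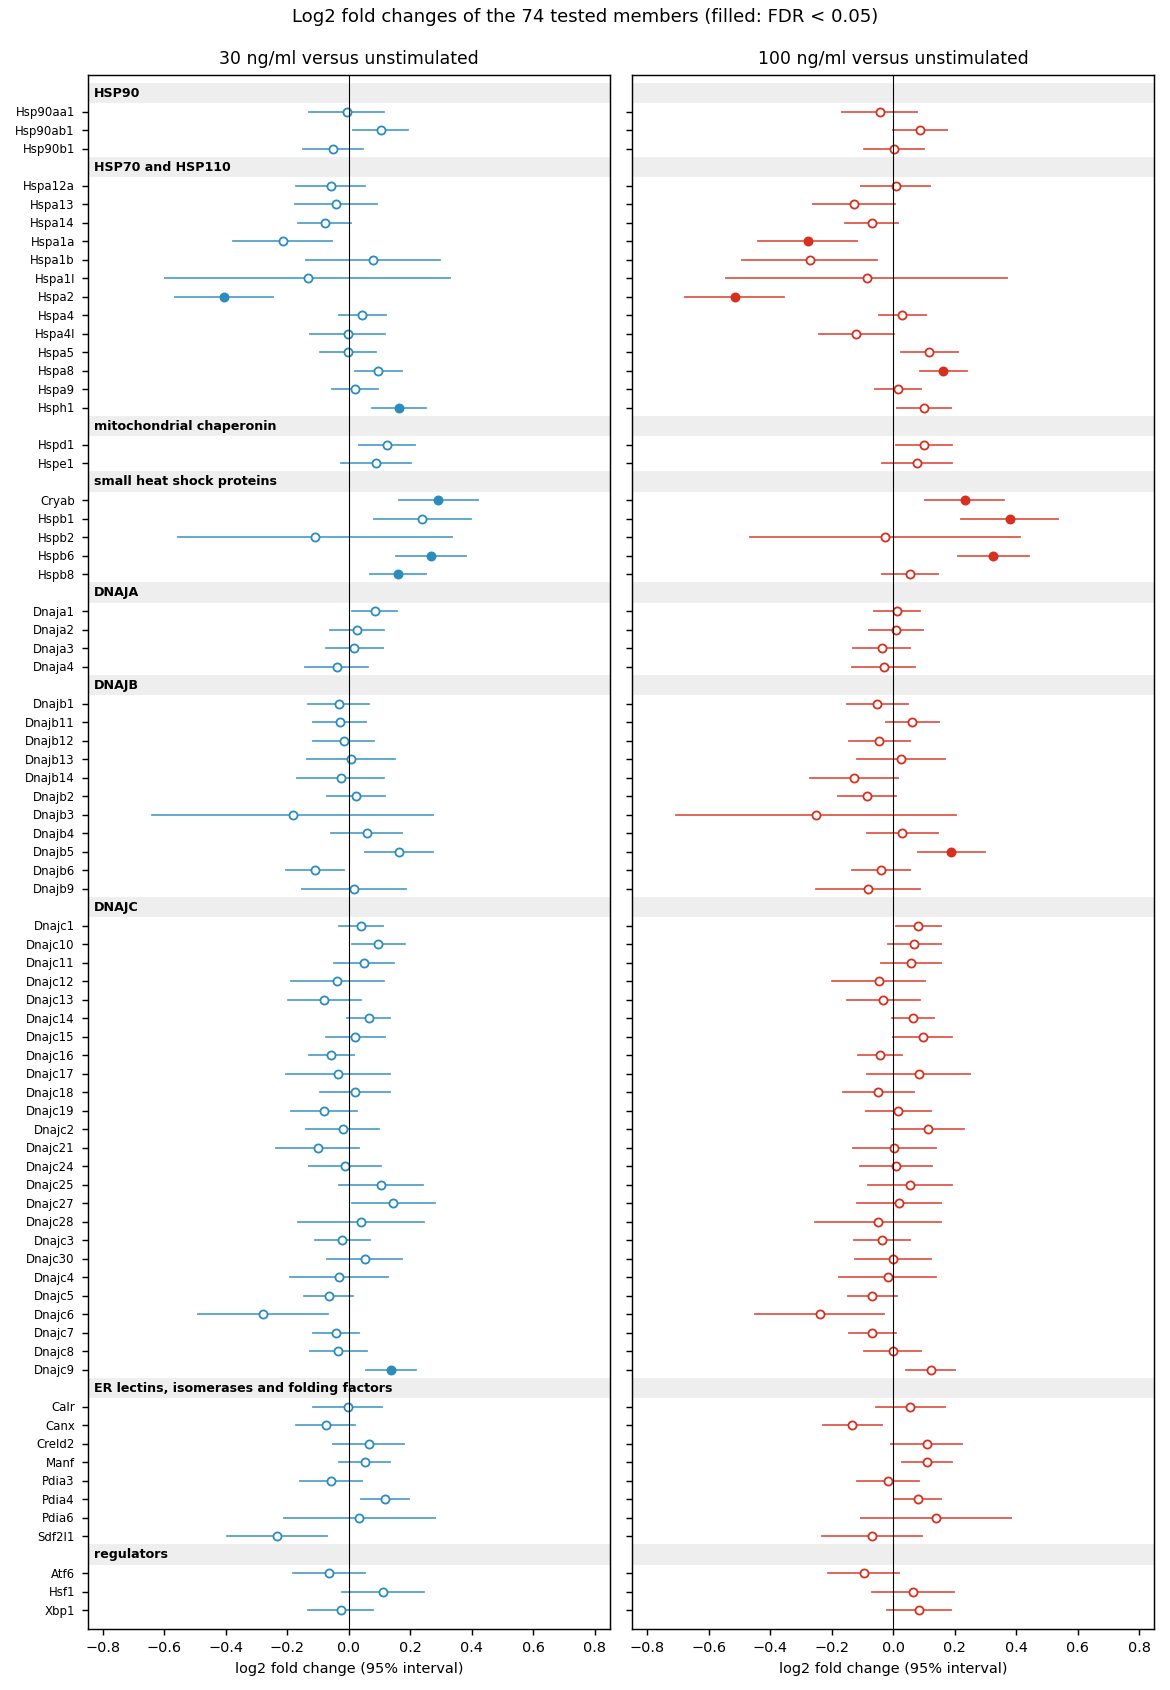
Log2 fold change with its 95% interval (x axis) for each of the 74 tested members (y axis, by group) with 30 ng/ml (left) and 100 ng/ml (right) against unstimulated cultures, with filled points for an FDR under 0.05. Most intervals span or lie near 0, and the filled points furthest from it are Hspa2 below and Hspb1, Hspb6 and Cryab above.

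By CPM, all 5 cultures with 100 ng/ml lay above all unstimulated cultures for 8 members (10.8% of those tested, against 4.34% of all genes) and below them for 3 (4.05%, against 2.84%). At 30 ng/ml these numbers were 10 members above (13.5%, against 5.43%) and 2 below (2.7%, against 3.46%). The members above the unstimulated range without a call by edgeR were Dnajc1, Dnajc9, Hspa5, Hspd1 and Pdia4 with 100 ng/ml, and Dnajc10, Dnajc14, Hsp90ab1, Hspa8, Hspd1 and Pdia4 with 30 ng/ml. Canx lay below that range with 100 ng/ml and Hspa1a with 30 ng/ml, also without a call by edgeR. Of these, DESeq2 called Dnajc9 and Canx with 100 ng/ml and Hspa8, Hspd1 and Pdia4 with 30 ng/ml. The separations depend on the unit. By TPM, Dnajc1, Dnajc9, Hspa5, Hspd1, Pdia4 and Canx overlapped with the unstimulated range at 100 ng/ml. Dnajb5, Hspa8 and Hspb6 stayed above it, and Hspb1 lay above it by TPM alone. At 30 ng/ml, Dnajc9, Dnajc10, Dnajc14, Hspd1 and Hspa1a overlapped by TPM, while the others named here did not.

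Among the 13 tested HSP70 and HSP110 genes, Hspa2 had the lowest log2 fold change at both concentrations, and the highest was that of Hspa8 with 100 ng/ml and of Hsph1 with 30 ng/ml. Hspa2 (chr12:76450151-76453712, GRCm39, forward strand), an HSP70 gene best known from the testis and also found in brain, fell at both concentrations. Its TMM-scaled CPM were 99.8, 109.3, 113.5, 108.5 and 116.9 in unstimulated cultures. They were 83.8, 90.8, 79.4, 81.5 and 77.9 with 30 ng/ml, and 77.5, 62.1, 70.7, 85.4 and 87.3 with 100 ng/ml. Every stimulated culture lay below every unstimulated culture, and the lowest was replicate 2 at 100 ng/ml. The log2 fold change was -0.52 ± 0.08 (SE) with 100 ng/ml (FDR 0.00045) and -0.41 ± 0.08 with 30 ng/ml (FDR 0.0040). Set against each other, 100 and 30 ng/ml gave a log2 difference of -0.11 (FDR 0.58).

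Hspa8 (chr9:40711630-40731039, forward strand) encodes the constitutive HSC70, which also uncoats clathrin vesicles at synapses. It had 1600, 1671, 1697, 1682 and 1629 CPM in unstimulated cultures and 1909, 1795, 1829, 1868 and 1871 CPM with 100 ng/ml. The groups did not overlap, and the rise was 0.16 ± 0.04 on the log2 scale (FDR 0.0086). The 30 ng/ml cultures had 1711 to 1825 CPM, also above the unstimulated range, with a log2 fold change of 0.10 ± 0.04 (FDR 0.11). The call with 100 ng/ml ended when counts were corrected for the effective length of the transcripts in use (log2 0.11, FDR 0.13). This effective length was 1142 to 1187 bases in unstimulated cultures and 1166 to 1261 with 100 ng/ml.

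The stress-inducible pair Hspa1a and Hspa1b gave no call of a rise. Hspa1a (chr17:35188166-35191132, reverse strand) had 7.81, 8.35, 8.11, 7.74 and 9.13 CPM in unstimulated cultures, 7.46, 7.02, 6.36, 7.28 and 7.26 CPM with 30 ng/ml and 7.02, 6.06, 6.19, 7.13 and 7.43 CPM with 100 ng/ml. All stimulated cultures lay below the unstimulated ones, and the fall was called with 100 ng/ml (log2 -0.28 ± 0.08, FDR 0.030) and not with 30 ng/ml (log2 -0.22 ± 0.08, FDR 0.094). The call ended without replicate 3 of the 100 ng/ml cultures or without unstimulated replicate 2 or 5 (FDR 0.052 to 0.083). Hspa1b (chr17:35175412-35178214) had 6.70 ± 0.934 CPM in unstimulated cultures, 7.07 ± 0.695 with 30 ng/ml and 5.55 ± 0.569 with 100 ng/ml (SD, n = 5), with FDR of 0.71 and 0.11. These genes are near-identical copies, so that the program that made the estimates had to divide their shared reads, and the values of each are uncertain. Their sum was 13.4 to 16.3 CPM in unstimulated cultures, 13.2 to 15.1 with 30 ng/ml and 11.8 to 13.03 with 100 ng/ml. The summed values with 100 ng/ml therefore lay below all unstimulated cultures, and those with 30 ng/ml overlapped with them. The promoters of the pair are given with the heat shock elements.

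Hsph1, an HSP110 exchange factor for HSP70, had 127 ± 4.02 CPM in unstimulated cultures, 143 ± 8.66 with 30 ng/ml and 137 ± 2.53 with 100 ng/ml. Its rise was called with 30 ng/ml (log2 0.16 ± 0.04, FDR 0.024), where replicate 5 (131.6 CPM) overlapped with the highest unstimulated culture (132.9 CPM). At 100 ng/ml the log2 fold change was 0.10 ± 0.04 (FDR 0.14). The call with 30 ng/ml ended with the effective length correction (FDR 0.12), and without replicate 1 or 2 of that group or unstimulated replicate 3 or 4 (FDR 0.062 to 0.075). The related Hspa4 and Hspa4l, the mitochondrial HSP70 Hspa9 and the ribosome-associated Hspa14 were not called, with log2 fold changes between -0.12 and 0.04.

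The 3 HSP90 genes gave no call by edgeR or DESeq2, and Hsp90ab1 alone had an unadjusted p under 0.05, with 30 ng/ml. Hsp90ab1, the constitutive cytosolic form, had 1104 to 1151 CPM in unstimulated cultures, 1158 to 1268 with 30 ng/ml and 1130 to 1258 with 100 ng/ml (log2 0.10, FDR 0.14, and log2 0.09, FDR 0.20). The 30 ng/ml cultures did not overlap with the unstimulated ones. Hsp90aa1, the heat-inducible cytosolic form, had 926 ± 59.5 CPM in unstimulated cultures, 922 ± 51.7 with 30 ng/ml and 898 ± 67.8 with 100 ng/ml. In the unstimulated group, replicate 2 (1032 CPM) lay far above the other 4 cultures (895 to 904 CPM). Of the mitochondrial chaperonin, Hspd1 (HSP60) had 171 to 180 CPM in unstimulated cultures, 179.8 to 202 with 30 ng/ml and 180.2 to 207 with 100 ng/ml. Neither group overlapped with the unstimulated one, by a narrow margin, and the FDR was 0.083 and 0.15. Its co-chaperonin Hspe1 had log2 fold changes of 0.09 and 0.08 (FDR 0.35 and 0.40). Both lie head to head on chromosome 1 on opposite strands.

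The small heat shock proteins had the highest median log2 fold change among the groups of members, which is a description without a test. Of 8 members, 5 were tested, and 3 of these rose at each concentration, Hspb1, Hspb6 and Cryab with 100 ng/ml and Hspb6, Cryab and Hspb8 with 30 ng/ml. That is 60.0% of the 5 tested, beside 5.83% of all genes called higher with 100 ng/ml and 4.16% with 30 ng/ml. The median log2 fold change of the 5 was 0.23 with 100 ng/ml and 0.24 with 30 ng/ml, beside -0.0038 and 0.0001 over all genes. Their summed level was 797 to 880 TPM in unstimulated cultures, 961 to 1042 TPM with 30 ng/ml and 846 to 990 TPM with 100 ng/ml.

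Cryab (chr9:50651859-50668567, forward strand) encodes alpha-B crystallin, which is abundant in astrocytes and oligodendrocytes. It had 191, 214, 190.0, 195 and 182 CPM in unstimulated cultures. The 30 ng/ml cultures had 249, 229.7, 223, 244 and 243 CPM, all above the unstimulated range (log2 0.29 ± 0.06, FDR 0.0079). At 100 ng/ml it had 247, 193, 246, 226 and 230.0 CPM (log2 0.23 ± 0.06, FDR 0.024). Here replicate 2 lay within the unstimulated range and the other 4 cultures above it. This call ended without replicate 1 or 3 of the 100 ng/ml cultures or unstimulated replicate 1, 3 or 5 (FDR 0.051 to 0.068). Hspb2, which overlaps Cryab on the opposite strand, had 23 to 51 counts per culture and log2 fold changes of -0.03 and -0.11 (FDR 0.95 and 0.81).

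Hspb6 (HSP20; chr7:30251603-30256218, forward strand) had 37.5, 34.9, 38.7, 35.1 and 36.2 CPM in unstimulated cultures. The values with 30 ng/ml were 46.7, 44.2, 41.0, 44.7 and 42.9 CPM, and those with 100 ng/ml 48.1, 39.8, 45.5, 46.5 and 48.6 CPM. No stimulated culture overlapped with the unstimulated ones, and the lowest was again replicate 2 at 100 ng/ml. The log2 fold change was 0.33 ± 0.05 with 100 ng/ml (FDR 0.0011) and 0.27 ± 0.05 with 30 ng/ml (FDR 0.0067). Hspb6 overlaps Lin37 and Proser3 on the other strand. Of the 84 members, 33 overlap a gene of at least 1 CPM on the opposite strand, and how such reads were assigned is not known.

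Hspb1 (HSP25, an actin-binding small heat shock protein; chr5:135916760-135918417, forward strand) had 46.0, 50.5, 50.1, 60.8 and 50.8 CPM in unstimulated cultures. At 100 ng/ml it had 77.0, 59.3, 64.5, 68.9 and 65.8 CPM, and only replicate 2 lay below the highest unstimulated culture. The rise was 0.38 ± 0.08 on the log2 scale (FDR 0.0042). The 30 ng/ml cultures had 56.5, 56.0, 64.4, 63.4 and 64.3 CPM, and its log2 fold change of 0.24 ± 0.08 did not pass the test (FDR 0.059). Hspb8 (HSP22), which works with the co-chaperone BAG3, showed the other order. It had 231 to 254 CPM in unstimulated cultures, 254 to 278 with 30 ng/ml and 228 to 263 with 100 ng/ml, and was called with 30 ng/ml (log2 0.16 ± 0.04, FDR 0.031) and not with 100 ng/ml (log2 0.06 ± 0.04, FDR 0.46). The call ended without replicate 3, 4 or 5 of the 30 ng/ml cultures or unstimulated replicate 1, 3, 4 or 5 (FDR 0.060 to 0.084). In the direct comparison of 100 with 30 ng/ml, the FDR was 0.45 for Hspb1 and 0.32 for Hspb8.

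**Figure D3:**
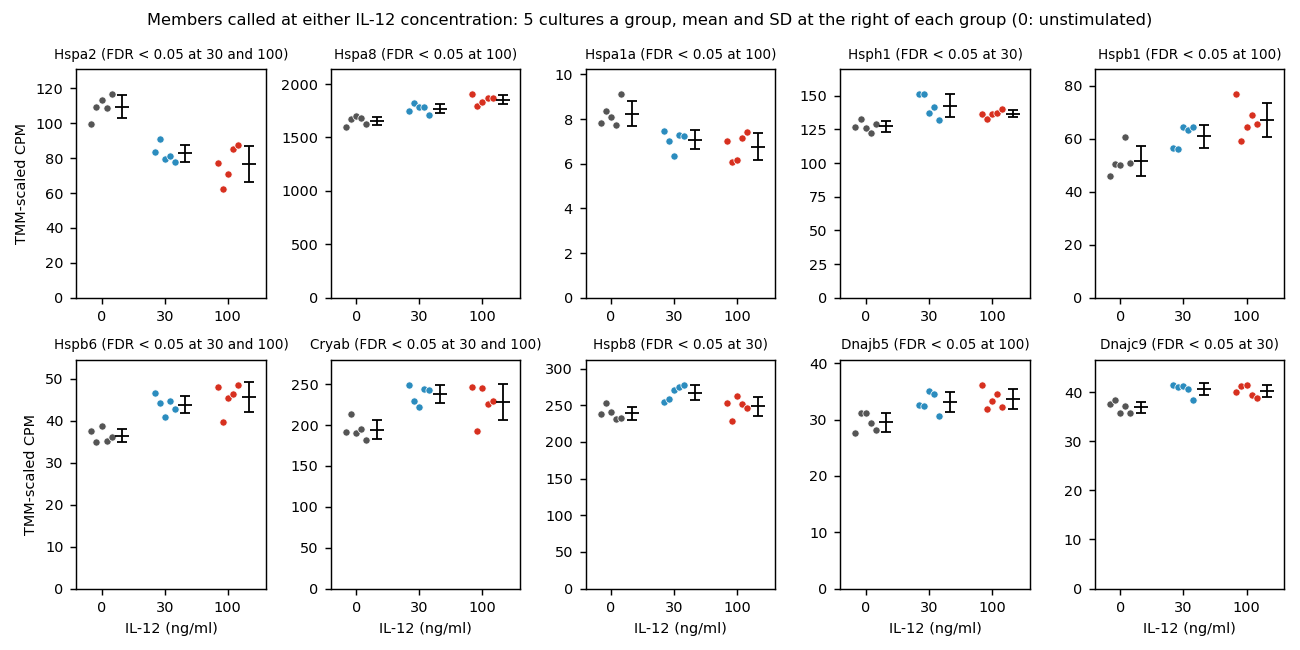
TMM-scaled CPM (y axis, from 0) of the members called at 30 or 100 ng/ml, in each of the 5 cultures of each group (x axis), with the mean and SD at the right of each group. Hspa2 and Hspa1a lie lower in all stimulated cultures, and Cryab with 100 ng/ml has 1 culture (193 CPM) within the unstimulated range.

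Markers of other cells moved in the same comparisons, and their part in these results was not tested. Of all tested genes, 4.16% were called higher and 3.71% lower with 30 ng/ml, and 5.83% higher and 3.93% lower with 100 ng/ml. Of 11 astrocyte markers, 3 rose with 30 ng/ml (Aldoc, Slc1a3 and Aldh1l1) and their sum was 3909 to 4386 TPM in unstimulated cultures, 4640 to 5407 with 30 ng/ml and 4346 to 4801 with 100 ng/ml. At 100 ng/ml, Aldoc rose and Gja1 fell. Of 11 tested microglia markers, 7 fell with 30 ng/ml, among them Trem2 (log2 -0.51, FDR 0.0064), and 0 were called with 100 ng/ml by edgeR or DESeq2, where 1 had an unadjusted p under 0.05 and their median log2 fold change was -0.12. The microglia sum was 8165 to 11570 TPM in unstimulated cultures, 6499 to 8163 with 30 ng/ml and 7830 to 10290 with 100 ng/ml. Of 12 oligodendrocyte lineage markers, 3 fell with 100 ng/ml (among them Mbp and Mag) and 1 with 30 ng/ml (Cspg4), with sums of 6642 to 9858, 6670 to 8194 and 5940 to 7212 TPM in unstimulated, 30 and 100 ng/ml cultures. Of 14 tested neuron markers, Tubb3 rose and Calb1 fell at both concentrations, and Gad1 fell with 30 ng/ml. Their median log2 fold change was -0.49 with 30 ng/ml and -0.26 with 100 ng/ml, with an unadjusted p under 0.05 for 9 and 5 of the 14. The sum of the neuron markers was 202 to 263 TPM in unstimulated cultures, 233 to 273 with 30 ng/ml and 227 to 257 with 100 ng/ml. The highest markers in this sum were Map2, with 76.8 to 92.3 TPM in the group means, and Tubb3, with 53.4 to 76.9 TPM. Of the fibroblast markers Col1a1 and Pdgfrb rose with 100 ng/ml. Of 5 tested endothelium markers, Flt1 was called, and fell at both concentrations. The endothelium marker Cldn5 and the NK cell marker Ncr1 had 0 counts in all cultures, and 0 of the 2 tested T and NK cell markers were called by edgeR or DESeq2, or had an unadjusted p under 0.05.

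The J-domain proteins bring clients to HSP70. The 4 DNAJA genes, which bind unfolded clients, gave none by edgeR or DESeq2 (1 had an unadjusted p under 0.05, with 30 ng/ml), and their log2 fold changes lay between -0.04 and 0.08. Of the 11 tested DNAJB genes, Dnajb5 was called with 100 ng/ml, which is 9.09% beside 9.77% of all genes. It had 27.7, 31.2, 31.2, 29.5 and 28.2 CPM in unstimulated cultures and 36.2, 31.9, 33.3, 34.6 and 32.2 CPM with 100 ng/ml, without overlap (log2 0.19 ± 0.05, FDR 0.029), and 30.7 to 35.1 CPM with 30 ng/ml (log2 0.16, FDR 0.061). The call ended without replicate 1, 3 or 4 of the 100 ng/ml cultures or unstimulated replicate 1 or 5 (FDR 0.051 to 0.083). Dnajb1, the heat-inducible HSP40, had 46.9 ± 1.99 CPM in unstimulated cultures, 45.8 ± 1.75 with 30 ng/ml and 45.2 ± 2.72 with 100 ng/ml. Its log2 fold changes were -0.03 and -0.05 (FDR 0.73 and 0.53), with 95% intervals from -0.13 to 0.07 and from -0.15 to 0.05.

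Of the 25 tested DNAJC genes, a diverse class that directs HSP70 to particular tasks, Dnajc9, a histone chaperone, was called with 30 ng/ml (4.0% of the class, beside 7.87% of all genes). It had 35.8 to 38.3 CPM in unstimulated cultures, 38.5 to 41.6 with 30 ng/ml and 38.8 to 41.5 with 100 ng/ml, without overlap (log2 0.14 ± 0.04, FDR 0.037, and log2 0.12 ± 0.04, FDR 0.053). The call ended without replicate 1, 2, 3 or 4 of the 30 ng/ml cultures or unstimulated replicate 1, 3, 4 or 5 (FDR 0.053 to 0.10). Dnajc6, the neuronal auxilin that acts with Hspa8 on clathrin coats, had 21.0 to 26.4 CPM in unstimulated cultures, 17.0 to 21.1 with 30 ng/ml and 15.7 to 23.5 with 100 ng/ml. Its log2 fold changes of -0.28 ± 0.10 and -0.24 ± 0.10 did not pass the test (FDR 0.096 and 0.14).

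Placement in the ER followed a list made for this report, which left out Atf6 and J-domain members such as Dnajb14. With all cultures and the quasi-likelihood test of edgeR, none of the 16 members placed there was called at either concentration. Of all genes, 9.77% were called with 100 ng/ml and 7.87% with 30 ng/ml. The lack of calls in so small a group is not read as particular to the ER members. Of the 16, 5 with 100 ng/ml and 3 with 30 ng/ml had an unadjusted p under 0.05. By DESeq2, 2 of the 16 were called at each concentration, Canx and Manf with 100 ng/ml and Pdia4 and Sdf2l1 with 30 ng/ml. Of all genes, DESeq2 called 12.8% with 100 ng/ml and 10.9% with 30 ng/ml. The 95% interval of the log2 fold change lay within 0.5 in either direction for all 16 at each concentration, and within 0.25 for 13 of them with 100 ng/ml and 14 with 30 ng/ml. Their median log2 fold change was 0.06 with 100 ng/ml and -0.0030 with 30 ng/ml. Their summed level was 4400 ± 153 TPM in unstimulated cultures, 4416 ± 214 with 30 ng/ml and 4452 ± 222 with 100 ng/ml (SD, n = 5).

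Hspa5 (chr2:34661982-34668880, forward strand) encodes BiP, the HSP70 of the ER and the usual marker of the unfolded protein response. It had 940.0, 948, 994.8, 1000 and 969.5 CPM in unstimulated cultures, and 1050, 1097, 1005, 1084 and 1031 CPM with 100 ng/ml. All cultures with 100 ng/ml lay above the unstimulated ones by a small margin, and the log2 fold change of 0.12 ± 0.04 did not pass the test (FDR 0.095). The 30 ng/ml cultures had 896, 996.5, 1022, 1002 and 928 CPM (log2 -0.0021 ± 0.04, FDR 0.98). Hsp90b1 (GRP94), the HSP90 of the ER, had log2 fold changes of 0.0023 and -0.05 at 100 and 30 ng/ml (FDR 0.98 and 0.57).

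Canx, the membrane-bound lectin chaperone of glycoproteins, had 734, 715, 727, 731 and 745 CPM in unstimulated cultures and 611, 712, 665, 662 and 682 CPM with 100 ng/ml, which lay below all of them (log2 -0.13 ± 0.05, FDR 0.075). Its soluble counterpart Calr had 1013 to 1171 and 1092 to 1216 CPM (log2 0.06, FDR 0.56). Manf, a secreted ER stress-inducible factor with neurotrophic activity, had 118, 107.3, 117, 116 and 115.3 CPM with 100 ng/ml against 103 to 111 CPM in unstimulated cultures (log2 0.11 ± 0.04, FDR 0.084). Without replicate 2 of the 100 ng/ml cultures, 4 members placed in the ER passed the test at this concentration, of which Manf and Creld2 were higher and Canx and Hspa13 lower. Dnajb14 and Atf6, which were not placed in the ER here, also passed. That is a setting in which 19.1% of all genes were called, so nothing particular to the ER members is read from it. In the same setting Pdia4 and Dnajc10 passed with 30 ng/ml, beside 10.9% of all genes. Creld2, an isomerase-like ER stress gene, had a log2 fold change of 0.11 with all cultures (FDR 0.23).

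Of the disulfide isomerases, Pdia4 had 269.7 to 280.6 CPM in unstimulated cultures, 280.8 to 312 with 30 ng/ml and 281.1 to 299 with 100 ng/ml (log2 0.12, FDR 0.056, and log2 0.08, FDR 0.18). Pdia3, the partner of calnexin and calreticulin, had log2 fold changes of -0.06 and -0.02 at 30 and 100 ng/ml. Pdia6 had the widest spread, from 59.0 to 94.4 CPM within the unstimulated group alone, and its interval with 100 ng/ml ran from -0.11 to 0.38. Sdf2l1, which holds BiP clients in solution together with ER J-domain proteins, had 69.0 to 90.7 CPM in unstimulated cultures and 58.8 to 74.4 CPM with 30 ng/ml (log2 -0.23 ± 0.08, FDR 0.073). It passed the test without unstimulated replicate 1 or 2. The J-domain members placed in the ER (Dnajb9, Dnajb11, Dnajc1, Dnajc3 and Dnajc10) had log2 fold changes between -0.08 and 0.10.

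**Figure D4:**
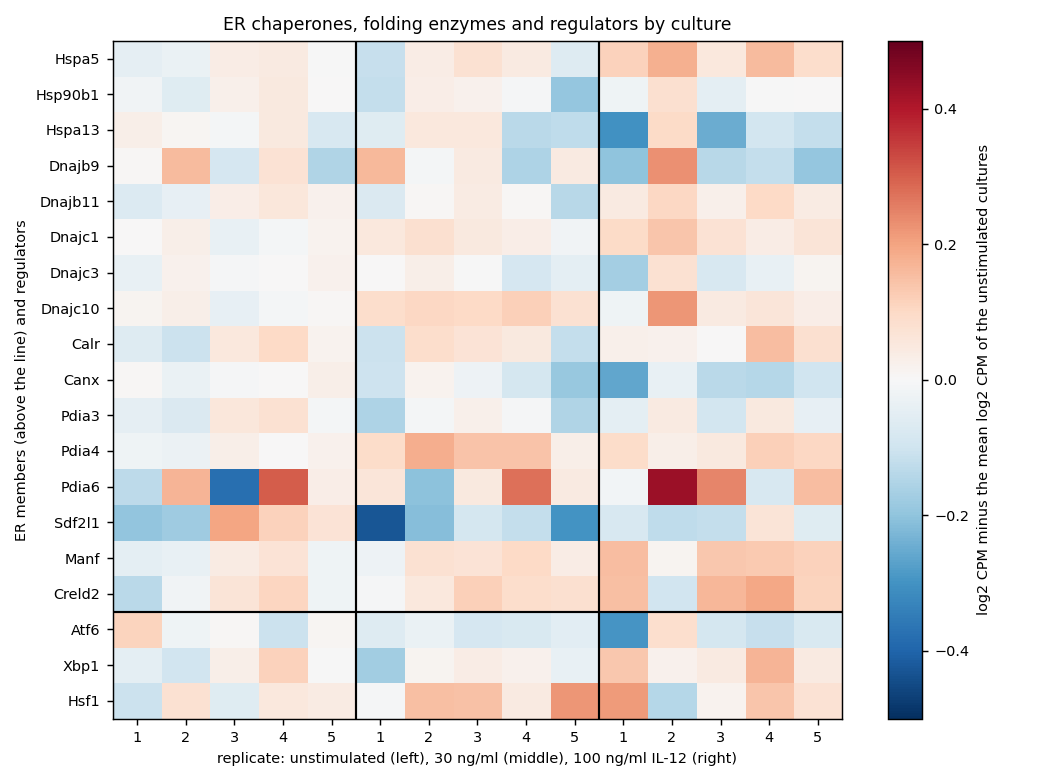
Log2 CPM of the 16 ER members and 3 regulators (rows) in each of the 15 cultures (columns) relative to the mean log2 CPM of the unstimulated cultures. Hspa5 is above this mean in all 5 cultures with 100 ng/ml, Canx is below it in the same cultures, and Pdia6 varies from culture to culture in every group.

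The 3 regulators gave no call by edgeR or DESeq2, and 0 of them had an unadjusted p under 0.05 against unstimulated cultures. Without replicate 2 of the 100 ng/ml cultures, Atf6 was called at this concentration, with the same 19.1% of all genes. Hsf1 had 25.9 ± 1.40 CPM in unstimulated cultures, 28.0 ± 1.75 with 30 ng/ml and 27.1 ± 2.47 with 100 ng/ml (FDR 0.32 and 0.56). Atf6 had 77.1 ± 4.14, 73.8 ± 0.997 and 72.2 ± 6.68 CPM (FDR 0.54 and 0.29). Xbp1 had 89.7 ± 5.04, 88.1 ± 5.13 and 95.04 ± 4.32 CPM (FDR 0.81 and 0.31).

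XBP1 becomes an active transcription factor when IRE1 removes a short intron from its mRNA, so the transcript without this intron stands for this step. The values here are estimated counts per transcript, in which shared reads were divided in a way that is not known. Reads across the intron were not counted, so the share is an estimate and no direct measure of IRE1 activity. The files hold 5 of the 24 annotated Xbp1 transcripts. In one of them, Xbp1-205, the annotation removes 26 bases at chr11:5474278-5474303 (GRCm39), and Xbp1-201 keeps them. Xbp1-205 held 6.11%, 6.36%, 4.31%, 8.83% and 9.73% of the Xbp1 estimated counts in unstimulated cultures, 8.48%, 5.61%, 8.62%, 8.18% and 7.28% with 30 ng/ml and 0.595%, 9.08%, 9.47%, 6.31% and 6.18% with 100 ng/ml. The groups overlapped. The mean share differed from the unstimulated one by 0.569 percentage points with 30 ng/ml (exact two-sided permutation test, p = 0.627) and by -0.739 points with 100 ng/ml (exact two-sided permutation test, p = 0.706), with an adjusted p of 0.706 for both comparisons. The smallest p this design allows is 0.00794. Replicate 1 at 100 ng/ml had 18.7 counts of this transcript where the other 14 cultures had 108 to 270.0. Without it the difference with 100 ng/ml was 0.694 points (exact permutation p = 0.603).

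**Figure D5:**
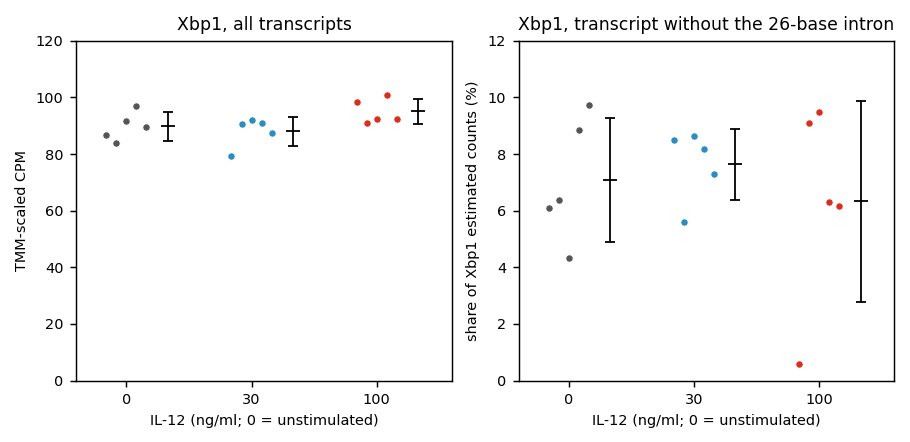
Left, TMM-scaled CPM of Xbp1 (y axis) and right, the share of its estimated counts held by the transcript that lacks the 26-base intron (%), for the 5 cultures of each group (x axis), with the mean and SD at the right of each group. The groups overlap in both, and the share of replicate 1 at 100 ng/ml (0.595%) is the lowest.

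Promoter sequence was set beside these values, since the ER members and the cytosolic members are known to be raised through different elements. The windows are the 250 bases before each listed start of a gene in RefSeq (GRCm38.p6), and 65 of the 84 members had at least one. Some genes had several starts, with 32851 windows for 27025 genes. A gene was counted as a holder where any of its windows held the element. The other 19, among them Hsf1 and the called members Cryab and Hspa8, had no window and were not searched for any element. The ER stress response element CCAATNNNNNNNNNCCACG, searched on both strands, was found before 7 of the 14 ER members with a window, and before 35 of all 27025 genes with one (0.130%). The holders were Hspa5, Hsp90b1, Dnajc3, Calr, Canx, Pdia6 and Creld2, none of which was called by edgeR with all cultures, with log2 fold changes with 100 ng/ml between -0.13 and 0.14. The stretches are printed on the strand of the gene, with the element, known to serve the ER stress response, in capitals. They were chosen by the match, so their likeness at its fixed letters is given by the search. Only the bases written as N and the flanks were free to differ. In Calr and Creld2 and at the second site of Hsp90b1 the element lies on the other strand.
Hspa5, chr2:34772015-34772053, forward strand: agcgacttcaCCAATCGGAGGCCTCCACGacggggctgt
Hsp90b1, chr10:86705523-86705666, reverse strand: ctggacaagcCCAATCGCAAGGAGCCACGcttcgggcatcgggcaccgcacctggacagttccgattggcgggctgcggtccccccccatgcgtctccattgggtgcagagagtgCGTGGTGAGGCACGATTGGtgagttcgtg
Dnajc3, chr14:118937817-118937855, forward strand: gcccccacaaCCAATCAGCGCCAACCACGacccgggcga
Calr, chr8:84847065-84847103, reverse strand: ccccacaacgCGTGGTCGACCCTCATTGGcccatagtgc
Canx, chr11:50325790-50325828, reverse strand: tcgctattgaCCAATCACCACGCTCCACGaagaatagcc
Pdia6, chr12:17266481-17266519, forward strand: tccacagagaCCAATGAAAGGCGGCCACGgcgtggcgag
Creld2, chr15:88819510-88819548, forward strand: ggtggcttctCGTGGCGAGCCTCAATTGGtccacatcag

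Heat shock elements are repeats of the unit GAA in alternating direction. The 2-unit form GAANNTTC was found before 11 of the 65 members (16.9%) and 7.73% of all genes, and the form TTCNNGAA before 6 (9.23%) and 8.11% of all genes. The forms read the same on both strands, and the 3-unit form GAANNTTCNNGAA, in which they overlap, was found before Dnajb6, Hspd1 and Hspe1 (4.62% of members and 0.514% of genes). Hspd1 and Hspe1 lie head to head and are each counted, and whether their windows share the same sites was not checked. The stretches shown are those of the inducible HSP70 pair, of called members with a match and of Hspd1, again with the matches in capitals. Hspa1a and Hspa1b carry the same 28 bases and are each counted as a holder. Hspb6 and Hspd1 each had a window at another start without a match of the 2-unit forms. Members called higher (Hspb1, Hspb6 and Hsph1) and lower (Hspa1a) are among the holders. The called members Hspa2, Hspb8, Dnajb5 and Dnajc9 are not among them, and Cryab and Hspa8 had no window. A match is a description and does not show a bound site.
Hspa1a, chr17:34972243-34972270, reverse strand: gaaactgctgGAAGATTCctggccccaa
Hspa1b, chr17:34959325-34959352, reverse strand: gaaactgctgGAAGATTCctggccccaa
Hsph1, chr5:149636352-149636379, reverse strand: ggtagaatctTTCTCGAAggctcgagaa
Hspb1, chr5:135887792-135887839, forward strand: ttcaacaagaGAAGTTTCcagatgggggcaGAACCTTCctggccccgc
Hspb6, chr7:30553171-30553198, forward strand: agtaattattGAAGTTTCtaaataagga
Hspd1, chr1:55088049-55088086, reverse strand: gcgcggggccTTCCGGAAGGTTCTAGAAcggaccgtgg
The STAT-type element TTCNNNGAA, a form bound by transcription factors of the STAT family that act below cytokine receptors, was found before 3 members (Dnajc7, Dnajc13 and Dnajc27; 4.62%) and 8.13% of all genes. The element TGACGTGG of the unfolded protein response was found before 1 member, Dnajc25 (1.54%), and 0.603% of all genes.

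Genes of the same pathways that are no members were read in the same fit. Of 22 HSF1 targets and cytosolic co-chaperones, Unc45a, a myosin chaperone, rose with 100 ng/ml (log2 0.21, FDR 0.014), and St13, the HSP70-interacting protein Hip, fell (log2 -0.16, FDR 0.018), as did Bag4 (log2 -0.23, FDR 0.028). At 30 ng/ml the HSP90 partners Ahsa2 (log2 0.24, FDR 0.013) and Fkbp4 (log2 0.15, FDR 0.033) rose. These calls are 13.6% of the list with 100 ng/ml and 9.09% with 30 ng/ml, beside 9.77% and 7.87% of all genes. Of 14 subunits of the chaperonin TRiC and of prefoldin, which fold actin and tubulin, 0 were called at either concentration by edgeR or DESeq2, and 2 had an unadjusted p under 0.05 with 100 ng/ml and 0 with 30 ng/ml.

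Of 37 genes of the unfolded protein response and ER quality control, 2 rose and 3 fell with 100 ng/ml, and 1 rose and 2 fell with 30 ng/ml. That is 13.5% and 8.11% of the list, beside 9.77% and 7.87% of all genes. Ero1a, the oxidase that recharges the disulfide isomerases and also a hypoxia-responsive gene, fell from 66.9 CPM in unstimulated cultures to 49.8 with 30 ng/ml (log2 -0.43 ± 0.07, FDR 0.0014) and 47.3 with 100 ng/ml (log2 -0.50 ± 0.07, FDR 0.00025). Trib3, which is induced through PERK, fell with 100 ng/ml (log2 -0.38, FDR 0.025), and Herpud1, a part of ER-associated degradation, rose (log2 0.18, FDR 0.016). Of 14 mitochondrial chaperones and proteases, Htra2 (log2 0.33, FDR 0.0069), Clpb (log2 0.12, FDR 0.048) and Spg7 (log2 0.16, FDR 0.048) rose with 100 ng/ml, and Htra2 and Clpb with 30 ng/ml. These calls are 21.4% and 14.3% of the list, beside 5.83% and 4.16% of all genes called higher. The median log2 fold change of the ER quality control genes was -0.04 with 100 ng/ml and -0.05 with 30 ng/ml, and that of the mitochondrial genes 0.06 and 0.02.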

How the data were processed

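RNA was sequenced from 15 cultures with a stranded poly(A) library kit. The labels name FastQC 0.10.0, STAR 2.7.8a, featureCounts and GRCm39. The deposited values are of another kind than the counts per gene the plan had assumed. For each of 121798 transcripts the authors deposited the effective length, the estimated count and TPM, in the layout of a pseudoalignment program whose name is not given in the sources used here. How reads of near-identical or overlapping genes were divided is therefore not known.

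Estimated counts were summed to genes with GENCODE M39 (99% of transcripts matched), rounded, filtered (at least 1 CPM in at least 2 cultures) and scaled by TMM. The 3 groups were fitted together with edgeR 4.0.16 (quasi-likelihood test, R 4.3.3) without a block, and p-values were adjusted by Benjamini-Hochberg over 15360 genes. The tool was tested on simulated data. The Xbp1 share was tested by exact permutation. DESeq2 1.42.0, other scalings and filters, an effective length correction, a replicate block, 2-group fits and leaving out each culture served as alternatives.

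Members and lists were chosen with earlier results of these data known. Named are a fixed core of 27 members, every called member and, of the other lists, up to 4 called genes each. Cultures with the same replicate number did not deviate together (5 of 15 pairs had a correlation over 0.1). Intervals of 95% are from the fit. Values of 1 member with low counts and of some marker genes are not reported here.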

Additional observations from a re-analysis of the deposited data

Results flagged for a closer look

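In groups of 5 cultures, a culture was singled out where its gap to the nearest other culture was large against the whole range of its group (Dixon's test at the 95% level). Of 99 groups checked, 6 held such a culture, and chance gives about 1 in 20.

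Replicate 2 at 100 ng/ml was singled out for 4 members. It was the highest culture of its group for Dnaja1 (223.1 CPM, others 211.2 to 213.8), for Dnajb9 (59.54 CPM, others 44.24 to 46.89) and for Hspd1 (206.7 CPM, others 180.2 to 187.8), and the lowest for Manf (107.3 CPM, others 115.3 to 118.2). It also had the lowest Cryab, Hspb1, Hspb6 and Hspa2 of the group.

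Replicate 2 of the unstimulated cultures was the highest of its group for Hsp90aa1 (1032 CPM, others 894.7 to 903.7) and for Dnajb1 (50.34 CPM, others 45.28 to 46.68). The other groups of the 32 members checked, and of the Xbp1 share, held no such culture.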

How the results depend on the processing

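The number of members called at 100 ng/ml (7) moved to 4 with the effective length correction and with only the 2 groups compared. That is 5.41% of members, beside 5.9% and 6.21% of all genes in these settings. When 1 culture was left out, the number ranged from 4 to 14. It was 4 without replicate 3 at 100 ng/ml or unstimulated replicate 5 (5.41% of members beside 6.18% and 6.12% of all genes). Without replicate 2 at 100 ng/ml it was 14 (8 higher), which is 18.9% of members beside 19.1% of all genes. The number at 30 ng/ml (6) became 12 with DESeq2 (16.2% of members beside 10.9% of all genes) and 10 with the likelihood-ratio test (13.5% beside 10.4%). It was 11 with library size alone (14.9% beside 9.19%) and 3 without the filter (3.66% beside 3.45%). When 1 culture was left out, it ranged from 3 (without unstimulated replicate 3, 4.05% beside 4.39%) to 11 (without replicate 2 at 100 ng/ml, 14.9% beside 10.9%). Between 100 and 30 ng/ml it was 0 in all 24 alternatives. Hspa2, Hspb6 and Hspb1 at 100 ng/ml and Hspa2, Hspb6 and Cryab at 30 ng/ml passed the test in all 24. Hspa8 passed in 23, Cryab at 100 ng/ml in 17, Hspa1a in 18, Dnajb5 in 16, and at 30 ng/ml Hsph1 in 18, Hspb8 in 15 and Dnajc9 in 14. No called member changed direction. The cause of the lost calls was not tested.

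The difference in the Xbp1 share turned to 0.694 points without replicate 1 at 100 ng/ml and to -0.121 points at 30 ng/ml without unstimulated replicate 3. Leaving out single cultures, it ranged from -1.53 to 0.694 points at 100 ng/ml and from -0.121 to 1.23 at 30 ng/ml.

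With the replicate block, 6 members (8.11%) were called at each concentration, beside 7.6% of all genes at 100 ng/ml and 7.04% at 30 ng/ml. Cryab at 100 ng/ml (FDR 0.051) and Hspb8 at 30 ng/ml (FDR 0.058) were lost, while Sdf2l1 was gained at 30 ng/ml. The numbers are not known to pair the cultures: 5 of 15 cultures correlated best with a culture of their own number.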
